A study of Mus musculus with 12 samples.

Results

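The 50 genes described here encode proteins of mitosis and cytokinesis, and were picked by name from the count table of PreMegEs, the mouse bone marrow progenitors that give rise to megakaryocytes and erythroid cells. All 50 symbols were found once among the 41128 genes of the table, and all 50 passed the filter for expressed genes (3 libraries or more with 1 CPM or more; CPM, counts scaled to library size), together with 13272 genes in all. RNA-Seq was done on 12 libraries in 4 groups of 3, and each library held cells from 3 pooled C57BL/6 mice of 12 to 16 weeks. WT PreMegEs came from wild type mice. The P2+ and P2- PreMegEs came from mice that carry the Runx1 P1-GFP::P2-hCD4 reporter knock-in on 1 allele, and were split by surface hCD4, which reports the proximal P2 promoter of Runx1, within cells positive for the distal P1 reporter. RUNX1C KO PreMegEs (KO) came from mice that lack RUNX1C, the product of the P1 promoter. All groups were sorted with the same surface markers, and PreMegE is a gate that can hold cells of more than 1 kind. Whether the KO libraries were prepared and sequenced together with the others is not given in the sources used here.

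Entry into mitosis is driven by Cdk1 with B-type cyclins, and Aurora and Polo-like kinases then build the spindle. The spindle checkpoint holds the anaphase-promoting complex back until kinetochores are attached, after which separase cuts the rings that join sister chromatids. Kinesins and bundling proteins arrange the central spindle, and centralspindlin directs the ring that divides the cell in cytokinesis. Megakaryocytes mature through endomitosis, in which cells enter mitosis and copy their genome again without completing division, while erythroid progenitors keep dividing until late in maturation.

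Total counts per library lay between 10726098 and 14445026 (median 12284879), and the 50 genes together took between 0.371% and 0.744% of them. Runx1 was at 203 to 216 CPM in P2- and at 613 to 659 CPM in P2+ PreMegEs. In the KO libraries it stood at 341, 381 and 357 CPM, against 363, 387 and 357 CPM in WT. A count per gene adds the products of both promoters, so it is no check of the loss of RUNX1C. Kit, a surface marker of the gate, was at 733 to 1156 CPM in every library, and the median over libraries of Cd3e (T cells) was 0 CPM. Of the myeloid markers, Ly6g (neutrophils) had a median of 0 CPM and S100a8 was at up to 11.6 CPM, while Itgam was at 1.03 to 7.17 CPM and Mpo, the myeloperoxidase of granulocyte and monocyte precursors, at 7.20 to 185 CPM.

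Nearly all of the 50 mitosis genes were expressed most in P2+ and least in P2- PreMegEs. From P2- to P2+ PreMegEs 46 of the 50 rose and 0 fell at an adjusted p under 0.05 (edgeR's quasi-likelihood test, 3 libraries against 3, Benjamini-Hochberg over all 12836 genes tested), while 20.1% of all genes tested were higher and 17.0% lower. No member was lower at an unadjusted p under 0.05 either, nor by edgeR's exact test or DESeq2 (0 in each). The median log2 fold change of the members was 0.83, against -0.02 over all genes tested. The ranges of both fractions were separate, with P2+ on top, in 47 members and in 24.8% of all genes. The changes were mostly of moderate size, and 14 members reached 2-fold, against 9.54% of all genes. In bulk samples, a larger share of cells in the phases that express these genes and more of these RNAs in each cell cannot be told apart. By EdU uptake and DNA content, the paper reported more P2+ than P2- PreMegEs in S phase.

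**Figure D1:**
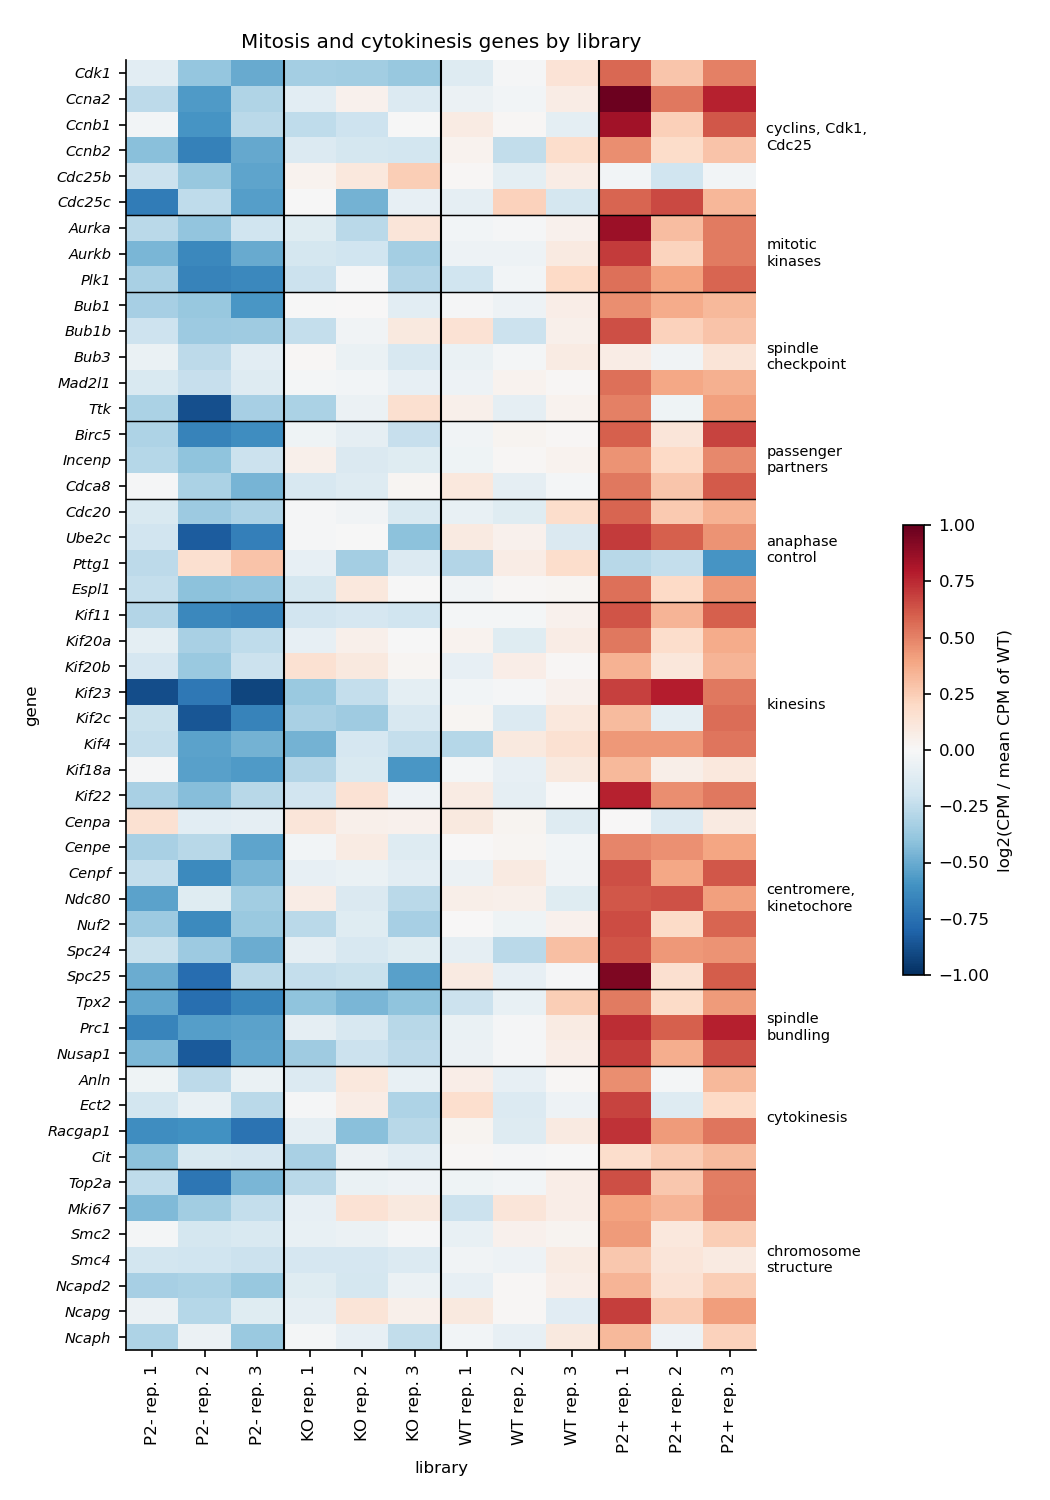
Level of each of the 50 genes (rows, grouped by role) in each library (columns, 3 per group) as the log2 ratio of its CPM to the mean CPM of WT, from blue (below WT) over white to red (above WT). P2+ columns are red and P2- columns blue in nearly every row, with exceptions such as Cdc25b and Pttg1, whose 3 P2+ libraries all lie below the WT mean, and KO columns are mostly pale blue.

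The summed level of the 50 genes was 4837, 5200 and 5323 CPM in the WT libraries. It was 4149, 3827 and 4066 CPM in P2-, 7288, 6242 and 7080 CPM in P2+, and 4731, 5069 and 4946 CPM in KO PreMegEs. The P2- libraries were thus the lowest and the P2+ libraries the highest, without overlap with any other group, while the KO and WT ranges overlapped. As a share of the WT mean, the sum stood at 78.4% in P2-, 134.2% in P2+ and 96.01% in KO PreMegEs. No test was made of the sum, because the genes were chosen with results of these data known. Mki67 alone made up between 26.6% and 32.7% of it, and without Mki67 the P2- and P2+ shares were 78.2% and 134.2%, and the KO share 92.7%.

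P2+ and P2- libraries of 1 replicate number shared their deviations, so they were also read as 3 pairs. In these pairs the summed level was 1.76, 1.63 and 1.74 times as high in P2+ as in P2- cells. In 47 members the P2+ library was the higher one in all 3 pairs, as it was in 33.1% of all genes tested. With the replicate number as a block in edgeR's quasi-likelihood test, 48 members were higher, among them the same 46, while 25.9% of all genes were higher and 24.8% lower in that fit. The other 2 were Bub3 (log2 fold change 0.21, adjusted p = 0.0141 with the block and 0.0698 without) and Ect2 (log2 fold change 0.44, adjusted p = 0.0184 with the block and 0.0828 without).

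**Figure D2:**
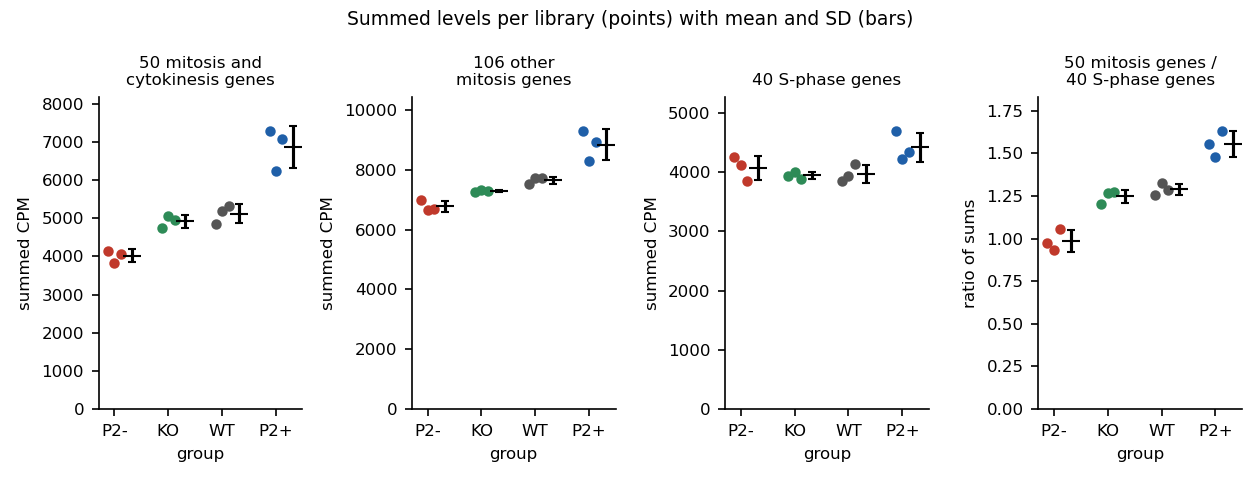
Summed CPM per library (points, 3 per group) of the 50 mitosis and cytokinesis genes, of 106 other mitosis genes and of 40 S-phase genes, and the ratio of the first sum to the third, with group mean and SD (bars), all axes from 0. The first panel separates P2- (3827 to 4149 CPM) and P2+ (6242 to 7288 CPM) from WT and KO, whereas the S-phase sums of P2- and WT overlap.

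Promoters of genes that peak in mitosis commonly hold a CHR (cell cycle genes homology region), which is bound by the DREAM complex in resting cells and by B-Myb and the MuvB core later in the cycle, together with CCAAT boxes, which are bound by NF-Y. The letters of these elements were searched on both strands in RefSeq promoter windows of 300 bases, from 250 before to 50 after the transcription start (GRCm38.p6), which were matched for 42 of the 50 genes in 45 windows. Not matched were Ccna2, Cdc25c, Aurkb, Incenp, Kif20a, Spc24, Tpx2 and Smc4. CHR letters (TTTGAA or TTCGAA) occurred in 35 of the 45 windows (77.8%), against 19.2% of all 32851 windows of the same length. CCAAT occurred in 73.3% of the members' windows and in 37.4% of all windows. Both together, with at least 2 CCAAT, occurred in 44.4% and in 2.31%. A match is a description of the letters and not of binding. The longer element with GCGG, then any 4 bases, then TTTGAA, which contains the CHR letters, was found in Cdk1 and Cenpf (4.44% of the members' windows, 0.07% of all). Letters of the RUNX site (TGTGGT or TGCGGT) occurred in 15.6% of the members' windows and in 22.4% of all.

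The windows of 6 genes are shown because they are promoters of genes the results turn on: 3 classical mitotic promoters (Cdk1, Ccnb2 and Top2a), the subunits of centralspindlin with changes above 2-fold (Kif23 and Racgap1), and Bub3, which did not pass the test. Of the other genes with little difference or a negative value, Cenpa had 1 CHR and 2 CCAAT matches in its window, and Pttg1 had 0 of either. Capitals mark CHR letters, which read TTTGAA or TTCGAA here and TTCAAA where the match is on the other strand. Capitals also mark CCAAT, which reads ATTGG where the match is on the other strand. Each is written 5′ to 3′ on the strand of its gene, from RefSeq on GRCm38.p6: Cdk1 at chr10:69352863-69353162 (minus strand), Ccnb2 at chr9:70421505-70421804 (minus), Top2a at chr11:99024140-99024439 (minus), Kif23 at chr9:61946750-61947049 (minus), Racgap1 at chr15:99651607-99651906 (minus) and Bub3 at chr7:131560120-131560419 (plus).
Cdk1: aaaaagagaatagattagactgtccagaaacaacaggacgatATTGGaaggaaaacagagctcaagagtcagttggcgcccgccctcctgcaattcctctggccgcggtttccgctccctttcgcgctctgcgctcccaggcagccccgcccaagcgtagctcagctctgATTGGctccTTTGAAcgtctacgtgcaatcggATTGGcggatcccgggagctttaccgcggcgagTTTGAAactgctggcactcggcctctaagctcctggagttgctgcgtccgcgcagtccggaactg
Ccnb2: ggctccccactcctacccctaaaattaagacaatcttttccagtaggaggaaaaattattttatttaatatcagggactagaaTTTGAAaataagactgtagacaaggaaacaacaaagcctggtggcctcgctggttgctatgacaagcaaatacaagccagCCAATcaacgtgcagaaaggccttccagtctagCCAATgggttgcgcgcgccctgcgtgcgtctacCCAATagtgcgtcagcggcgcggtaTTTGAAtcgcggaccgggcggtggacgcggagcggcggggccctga
Top2a: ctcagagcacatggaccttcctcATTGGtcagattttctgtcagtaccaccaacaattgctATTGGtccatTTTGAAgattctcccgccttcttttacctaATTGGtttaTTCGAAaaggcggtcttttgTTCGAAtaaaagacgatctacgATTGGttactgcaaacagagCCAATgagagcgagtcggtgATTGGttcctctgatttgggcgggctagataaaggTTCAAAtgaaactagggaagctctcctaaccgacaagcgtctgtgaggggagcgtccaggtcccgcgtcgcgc
Kif23: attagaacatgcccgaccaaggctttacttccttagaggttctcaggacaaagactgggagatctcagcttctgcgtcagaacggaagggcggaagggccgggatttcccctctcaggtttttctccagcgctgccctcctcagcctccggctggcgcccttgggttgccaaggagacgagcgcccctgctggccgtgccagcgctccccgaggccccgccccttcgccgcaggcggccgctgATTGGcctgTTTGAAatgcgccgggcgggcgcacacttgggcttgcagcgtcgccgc
Racgap1: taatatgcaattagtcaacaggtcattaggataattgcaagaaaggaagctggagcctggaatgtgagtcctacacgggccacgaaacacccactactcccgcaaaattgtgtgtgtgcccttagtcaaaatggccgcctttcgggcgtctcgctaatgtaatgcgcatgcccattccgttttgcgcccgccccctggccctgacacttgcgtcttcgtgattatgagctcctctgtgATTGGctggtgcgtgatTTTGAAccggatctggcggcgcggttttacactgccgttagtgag
Bub3: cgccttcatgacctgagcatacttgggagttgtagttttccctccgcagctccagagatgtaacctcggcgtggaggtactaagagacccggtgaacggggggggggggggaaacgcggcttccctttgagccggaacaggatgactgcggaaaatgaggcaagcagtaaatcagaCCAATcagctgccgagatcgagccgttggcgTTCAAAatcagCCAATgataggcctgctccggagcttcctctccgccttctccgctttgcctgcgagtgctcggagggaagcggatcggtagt
Each of the 6 windows holds at least 1 match of either kind, that of Bub3 included, whose level differed little between the groups. Among the 42 genes with a window, the difference between the fractions had a median of 0.81 on the log2 scale in those with CHR letters (n = 32, 29 higher in P2+) and of 0.73 in those without (n = 10, 9 higher). No test was made of this difference.

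**Figure D3:**
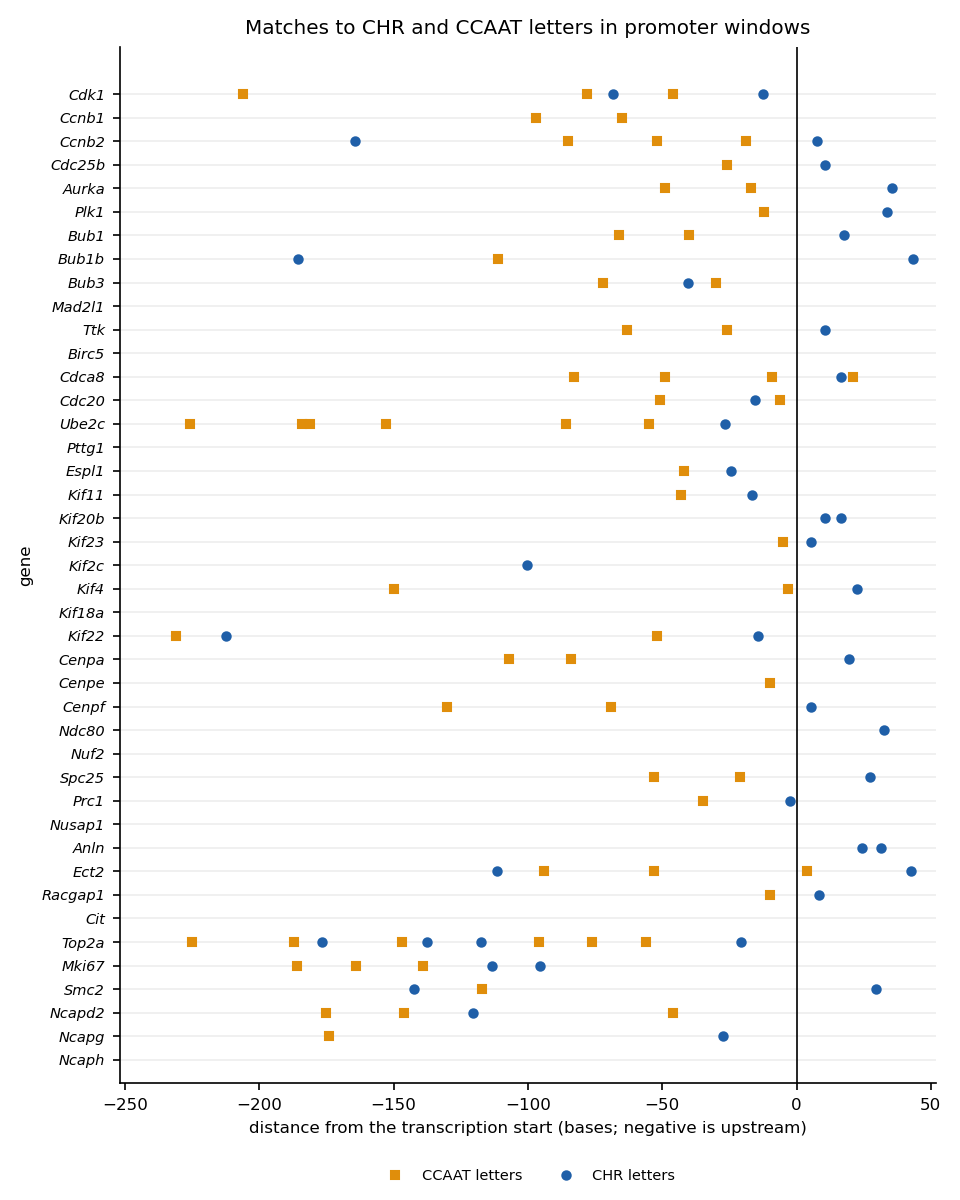
Position of matches to CHR letters (blue points) and CCAAT letters (orange squares) in the first promoter window of each gene (rows), as the distance in bases from the RefSeq transcription start, negative upstream. Of the 64 CCAAT matches 62 lie before the start, at a median of -67.5, and the 44 CHR matches lie nearer to the start, at a median of -10.0.

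Cyclins, Cdk1 and the Cdc25 phosphatases that activate it were higher in P2+ than in P2- PreMegEs in 6 of 6 cases, with a median log2 fold change of 0.87. Cdk1 (ENSMUSG00000019942, chr10:69335146-69352938 on GRCm38, minus strand) was at 29.5, 24.3 and 22.5 CPM in the P2- libraries and at 47.4, 38.6 and 45.2 CPM in the P2+ libraries. Its WT values of 29.0, 31.5 and 34.96 CPM overlapped those of P2-, and its KO values of 25.1, 25.1 and 24.5 CPM lay below every WT library. The change between the fractions was 0.79 ± 0.14 on the log2 scale (SE, adjusted p = 0.00198). Ccna2, the cyclin of S phase and early mitosis, was at 172, 139 and 167 CPM in P2-, 198, 203 and 217 CPM in WT, and 407, 297 and 352 CPM in P2+ PreMegEs. With 191, 212 and 188 CPM in KO, its groups overlapped only between KO and WT, and it had the largest difference of the group (1.16 ± 0.13, adjusted p = 0.000167). Ccnb1, the B cyclin of mitotic entry, was at 50.8, 34.4 and 43.0 CPM in P2- and 92.9, 61.2 and 79.8 CPM in P2+ PreMegEs. Its WT libraries (54.9, 52.1 and 48.3 CPM) and KO libraries (43.3, 44.7 and 51.6 CPM) overlapped with P2-. Ccnb2 and Cdc25c were higher in P2+ as well, by 0.86 and 1.04 on the log2 scale. Cdc25b differed the least (0.30 ± 0.10, adjusted p = 0.0442) and was the one gene of this group with its highest mean in KO PreMegEs (96.5 ± 7.24 CPM, SD, n = 3, against 88.1 ± 5.26 in WT).

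All 3 mitotic kinases were higher in P2+ than in P2- PreMegEs, Plk1 and Aurkb by more than 2-fold and Aurka, the kinase of centrosomes and spindle poles, by 0.87 on the log2 scale. Aurkb, the kinase that corrects chromosome attachment and acts in abscission, was at 51.2, 45.0 and 49.6 CPM in P2-, at 68.1, 68.0 and 75.1 CPM in WT and at 114, 82.3 and 101 CPM in P2+ PreMegEs. Its KO libraries, at 62.3, 61.4 and 55.6 CPM, lay between P2- and WT without overlap with either, though the change to WT did not pass the test (log2 fold change -0.24 ± 0.08, adjusted p = 0.0579). Plk1, which drives mitotic entry and centrosome maturation, was at 33.4, 26.3 and 26.8 CPM in P2- and at 61.3, 55.2 and 62.5 CPM in P2+ PreMegEs. Its WT values were 36.5, 41.1 and 47.9 CPM, and its KO values of 36.0, 41.4 and 34.2 CPM overlapped with them. The partners of Aurkb in the chromosomal passenger complex, Birc5 (survivin), Incenp and Cdca8 (borealin), were higher in 3 of 3 cases, with log2 fold changes of 1.02, 0.69 and 0.75. The P2+ libraries lay above the P2- libraries for all 6 of these genes.

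The checkpoint genes changed less. Bub1, Bub1b, Mad2l1 and Ttk were higher in P2+ PreMegEs, by between 0.62 and 0.83 on the log2 scale, and 0 of the 5 genes reached 2-fold. Bub3, which brings Bub1 and Bub1b to kinetochores, was at 88.7, 77.3 and 86.1 CPM in P2-, at 88.6, 91.7 and 98.0 CPM in WT, at 97.6, 90.6 and 101 CPM in P2+ and at 93.3, 88.6 and 83.1 CPM in KO PreMegEs. All groups but P2- and P2+ overlapped.

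Among genes of anaphase control, 3 of 4 were higher in P2+ PreMegEs. Ube2c, the ubiquitin-conjugating enzyme that works with the anaphase-promoting complex, was at 22.8, 14.7 and 16.3 CPM in P2- and 42.4, 39.5 and 35.7 CPM in P2+ PreMegEs (log2 fold change 1.14 ± 0.17, adjusted p = 0.000933). Its WT level was 27.8, 26.9 and 23.7 CPM and its KO level 25.9, 26.0 and 19.7 CPM, so that KO overlapped with P2- and with WT. Cdc20, which activates the same complex, was at 48.8, 42.0 and 43.7 CPM in P2-, 51.4, 49.9 and 61.2 CPM in WT, 53.7, 52.8 and 48.7 CPM in KO and 81.3, 65.0 and 69.0 CPM in P2+ PreMegEs. Espl1, the separase that cuts cohesin, was 0.76 higher in P2+ than in P2- PreMegEs on the log2 scale. Pttg1, the securin that holds separase inactive, was the 1 member with a negative value. It was low, at 5.17, 6.92 and 7.55 CPM in P2- and 5.11, 5.25 and 4.12 CPM in P2+ PreMegEs, and the groups overlapped (log2 fold change -0.43 ± 0.24, adjusted p = 0.194).

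The kinesins were higher in P2+ PreMegEs in 8 of 8 cases. Kif23 (ENSMUSG00000032254, chr9:61915905-61946774, minus strand), the motor subunit of centralspindlin, had the largest change of all 50 genes. Its level was 13.9, 15.7 and 13.6 CPM in P2- and 41.3, 44.4 and 37.1 CPM in P2+ PreMegEs, which is 2.87-fold or 1.52 ± 0.12 on the log2 scale (adjusted p = 2.96e-05). WT libraries stood at 25.2, 25.5 and 26.4 CPM and KO libraries at 19.9, 21.8 and 24.0 CPM, so that no 2 of the 4 groups overlapped. Kif11, the motor that pushes the spindle poles apart, was at 141, 110 and 109 CPM in P2-, 152, 154 and 150 CPM in KO, 170, 170 and 178 CPM in WT and 267, 218 and 261 CPM in P2+ PreMegEs. Its 4 groups were also separate from each other, in the same order. Kif22, a motor on chromosome arms, was at 33.5, 31.1 and 34.6 CPM in P2- and 71.4, 57.9 and 60.3 CPM in P2+ PreMegEs, and its KO values (36.7, 46.3 and 40.4 CPM) overlapped with those of WT (44.4, 39.3 and 42.0 CPM). The remaining kinesins, Kif4, Kif2c, Kif20a, Kif20b and Kif18a, were higher by between 0.53 and 0.89 on the log2 scale.

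Genes that bundle spindle microtubules changed the most as a group, with 3 of 3 above 2-fold and a median log2 fold change of 1.18. Prc1 (chr7:80294450-80316259, plus strand), which crosslinks the antiparallel microtubules of the central spindle, was at 68.7, 74.1 and 74.9 CPM in P2-, 103, 107 and 114 CPM in WT, and 181, 164 and 186 CPM in P2+ PreMegEs. KO libraries, at 102, 96.8 and 89.5 CPM, lay below WT and above P2-, again without overlap. Prc1 had the smallest adjusted p of the 50 genes (log2 fold change 1.30 ± 0.08, adjusted p = 7.11e-06). Nusap1, which binds spindle microtubules, was at 90.3, 69.0 and 85.5 CPM in P2-, 119, 122 and 129 CPM in WT, and 200, 159 and 193 CPM in P2+ PreMegEs. Its KO libraries, at 96.6, 106 and 103 CPM, lay between those of P2- and WT. Tpx2, which activates Aurora A at the spindle, was at 52.2, 44.4 and 47.8 CPM in P2-, 64.7, 71.3 and 89.0 CPM in WT, and 107, 85.5 and 101 CPM in P2+ PreMegEs, where 1 WT library reached above the lowest P2+ library. With 56.7, 54.5 and 56.6 CPM in KO, it had the lowest KO level relative to WT of the 50 genes.

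Of 4 genes of the division ring and midbody, 3 were higher in P2+ than in P2- PreMegEs, and they differed widely in size. Racgap1 (chr15:99620496-99651656, minus strand), the partner of Kif23 in centralspindlin, was at 48.5, 49.2 and 44.9 CPM in P2- and 124, 101 and 108 CPM in P2+ PreMegEs (log2 fold change 1.23 ± 0.10, adjusted p = 2.55e-05). It was at 76.03, 68.6 and 79.8 CPM in WT and at 70.2, 55.8 and 61.7 CPM in KO libraries, and the latter 2 groups overlapped. Ect2, the exchange factor that centralspindlin recruits to activate RhoA, was at 28.7, 30.9 and 27.0 CPM in P2- and at 51.9, 29.8 and 37.3 CPM in P2+ PreMegEs. The second P2+ library fell within the P2- range, and the difference (0.47 ± 0.19 on the log2 scale) did not pass the test without the block. Without replicate 2 of both fractions it was 0.70 (adjusted p = 0.00384). Anln, the ring scaffold anillin, was higher by 0.40 and Cit, citron kinase of the midbody, by 0.50 on the log2 scale.

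At the centromere and kinetochore 6 of 7 genes were higher in P2+ PreMegEs. The 4 subunits of the Ndc80 complex, which grips microtubule ends, moved together, with log2 fold changes of 0.90 for Ndc80, 0.96 for Nuf2, 0.88 for Spc24 and 1.11 for Spc25. Spc25 was at 18.9, 15.7 and 22.0 CPM in P2-, 28.3, 25.2 and 26.4 CPM in WT, 22.6, 22.7 and 18.3 CPM in KO and 50.8, 29.7 and 40.4 CPM in P2+ PreMegEs. Its KO and P2- libraries overlapped and lay below WT. Cenpe, a kinetochore motor, and Cenpf, a kinetochore protein, were higher by 0.84 and 1.01 on the log2 scale. Cenpa, the histone H3 variant that marks centromeres, differed from the others, at 106, 88.3 and 89.4 CPM in P2- and 95.2, 86.3 and 101 CPM in P2+ PreMegEs (log2 fold change 0.01 ± 0.10, adjusted p = 0.946). Its WT libraries (101, 96.6 and 86.9 CPM) and KO libraries (103, 98.5 and 97.9 CPM) overlapped with each other and with both fractions.

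Genes of chromosome structure were higher in 7 of 7 cases with smaller changes, a median log2 fold change of 0.60 and 0 genes at 2-fold. Top2a, which untangles sister DNA, was at 262, 190 and 229 CPM in P2-, 304, 308 and 327 CPM in WT, 260, 298 and 302 CPM in KO and 489, 378 and 446 CPM in P2+ PreMegEs. KO overlapped with P2- for this gene and lay below WT. Mki67, the surface protein of mitotic chromosomes known as a marker of cycling cells, was at 1105, 1177 and 1274 CPM in P2- and 1988, 1903 and 2155 CPM in P2+ PreMegEs (log2 fold change 0.78 ± 0.07, adjusted p = 7.99e-05). The first WT library was low for Mki67 (1294 CPM, against 1636 and 1573 CPM in the others), and the KO libraries (1421, 1659 and 1604 CPM) overlapped with WT. The condensin subunits Smc2, Smc4, Ncapd2, Ncapg and Ncaph were higher by between 0.37 and 0.63 on the log2 scale.

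**Figure D4:**
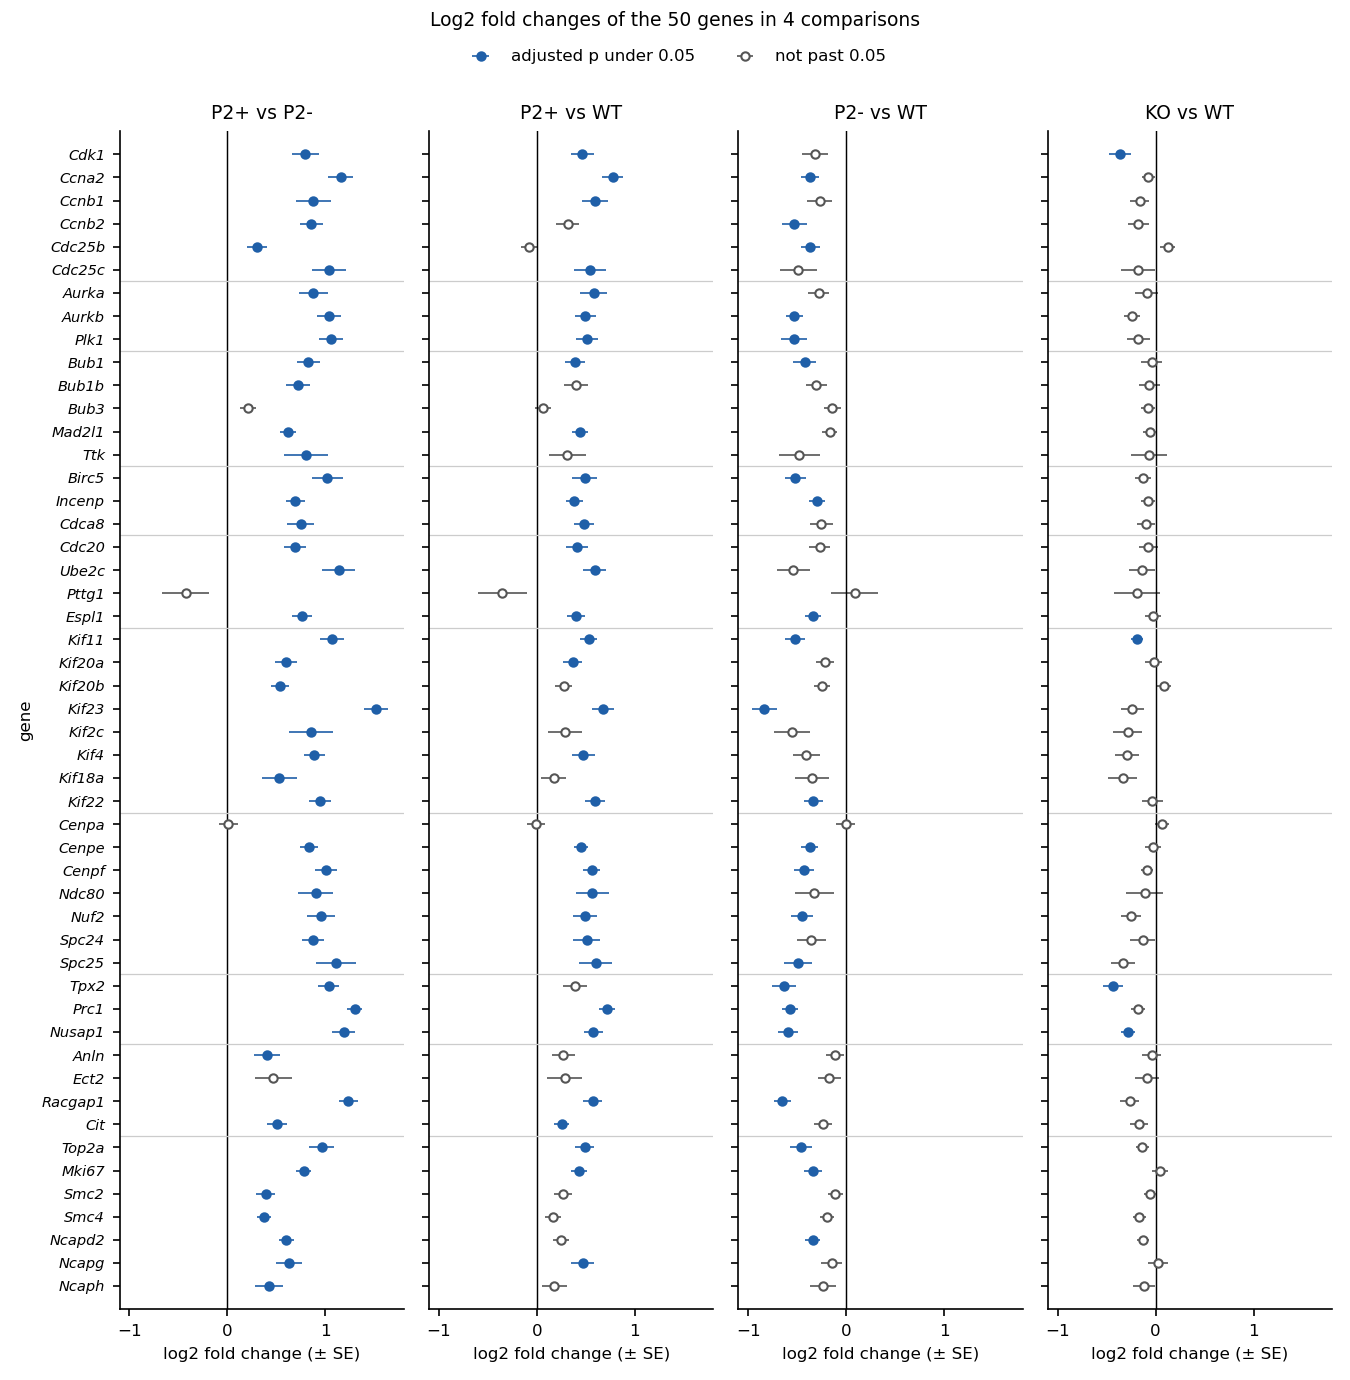
Log2 fold change (points) with its standard error (bars) of each gene in the 4 comparisons, by edgeR's quasi-likelihood test, with filled points for an adjusted p under 0.05 and open points otherwise. The filled points number 46, 33, 23 and 4 from left to right and are all on 1 side of 0 within a panel, and the changes of KO are the smallest in the median, though not for every gene.

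Some calls between the fractions depended on single libraries. Leaving out each of the 6 libraries in turn gave between 40 and 46 higher members and 0 lower ones, with 15.8% to 19.0% of all genes higher. The genes that lost their call in at least 1 of these fits were Cdc25b, Ttk, Kif2c, Kif18a, Anln and Ncaph, with adjusted p values of up to 0.158. Replicate 2 of both fractions stood apart from the other libraries, with summed levels of 20 immediate early genes of 15322 CPM in P2- and 11312 CPM in P2+, against 281 to 1562 CPM in the other libraries. Within their fractions these libraries also had the lowest member levels, with median deviations of -0.09 and -0.15 from the fraction's mean on the log2 scale. Without both, 46 members and 20.3% of all genes were higher, 45 of these members among the 46 of the full comparison, and the median log2 fold change was 0.86.

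Compared with WT PreMegEs, most of these genes had higher mean levels in P2+ and lower ones in P2- cells, though many changes did not pass the test. WT PreMegEs were not split by P2 activity and can hold cells of both kinds. The fractions also carry the reporter allele, so effects of the split and of the genotype cannot be told apart here. These comparisons share the WT libraries and are therefore not independent of each other. In P2+ against WT, 33 members were higher and 0 lower (edgeR's quasi-likelihood test), while 9.45% of all 12941 genes tested were higher and 7.07% lower. The count of lower members was 0 also at an unadjusted p under 0.05, by edgeR's exact test and by DESeq2. The median log2 fold change was 0.45 (0.00 over all genes), 39 members had every P2+ library above every WT library (18.0% of all genes), and 0 reached 2-fold. The largest changes were those of Ccna2 (0.78 ± 0.11, adjusted p = 0.000892), Prc1 (0.71 ± 0.08, adjusted p = 0.000282), Kif23 (0.67 ± 0.11, adjusted p = 0.00258), Spc25 (0.60 ± 0.17, adjusted p = 0.037) and Kif22 (0.60 ± 0.10, adjusted p = 0.00284). The call of Spc25 was lost in 5 of the 6 fits that left out 1 library. The count of higher members fell to 16 without WT replicate 1, to 19 without WT replicate 2, to 20 without P2+ replicate 1 and to 21 without P2+ replicate 3. The share of all genes that were higher fell as well in these fits, from 9.45% to 5.53%, 5.69%, 7.11% and 6.75%.

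In P2- against WT, 23 members were lower and 0 higher by the same test, against 9.60% and 6.85% of all 12767 genes tested. The count of higher members was 0 also at an unadjusted p under 0.05, by edgeR's exact test and by DESeq2. The median log2 fold change was -0.35 (0.01 over all genes), and in 34 members every P2- library lay below every WT library (18.1% of all genes), with 0 at 2-fold. The largest changes were those of Kif23 at -0.84 ± 0.13 (adjusted p = 0.00171), Racgap1 at -0.65 ± 0.09 (adjusted p = 0.000858), Tpx2 at -0.64 ± 0.12 (adjusted p = 0.00636), Nusap1 at -0.60 ± 0.10 (adjusted p = 0.00339) and Prc1 at -0.58 ± 0.08 (adjusted p = 0.00104). These 5 calls were kept in each fit without 1 library. The count of lower members fell to 12 without WT replicate 2 and to 11 without WT replicate 3, and the share of all genes that were lower fell to 5.74% and 6.54%. The 46 members that were higher in P2+ than in P2- PreMegEs were also placed on a scale with P2- at 0% and P2+ at 100%. The mean CPM of WT stood at a median of 39.2% (quartiles 34.3% and 43.4%), and that of KO at 25.1% (quartiles 18.5% and 29.9%). These members were picked by the same difference that sets the scale, and no such value was computed for other genes.

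In KO PreMegEs the changes were small and mostly did not pass the test. Of the 50 genes, 4 were lower and 0 higher than in WT, while 8.76% of all 12784 genes tested were lower and 6.18% higher, so the share of lower members (4 of 50) was near that of all genes. At an unadjusted p under 0.05, 12 of the 50 members were lower and 0 higher, against 14.6% and 12.5% of all genes, and DESeq2 gave 4 lower and 0 higher, edgeR's exact test 3 lower and 0 higher. The median log2 fold change was -0.12, against 0.00 over all genes, and 45 members had a negative value, as had 6461 of all 12784 genes. In 16 members every KO library lay below every WT library, against 16.1% of all genes. The genes that passed were Tpx2 (-0.43 ± 0.10, adjusted p = 0.00757), Cdk1 (-0.36 ± 0.11, adjusted p = 0.0342), Nusap1 (-0.29 ± 0.07, adjusted p = 0.00968) and Kif11 (-0.19 ± 0.06, adjusted p = 0.0417). Tpx2 kept its call in each fit without 1 library, and its log2 fold change was -0.29 without WT replicate 3, the library with the highest Tpx2 level. Nusap1 lost its call without KO replicate 1 (adjusted p = 0.0586), Cdk1 in 5 of these 6 fits and Kif11 in all 6 fits. The count of lower members was 2 without WT replicate 3 and without KO replicate 1, 2 or 3, where 7.46%, 6.37%, 6.84% and 5.77% of all genes were lower. Mki67 (0.05 ± 0.08, adjusted p = 0.764) and Bub3 (-0.08 ± 0.07, adjusted p = 0.551) did not pass, and neither did the centralspindlin genes Kif23 (-0.24 ± 0.12, adjusted p = 0.2) and Racgap1 (-0.27 ± 0.09, adjusted p = 0.0613).

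**Figure D5:**
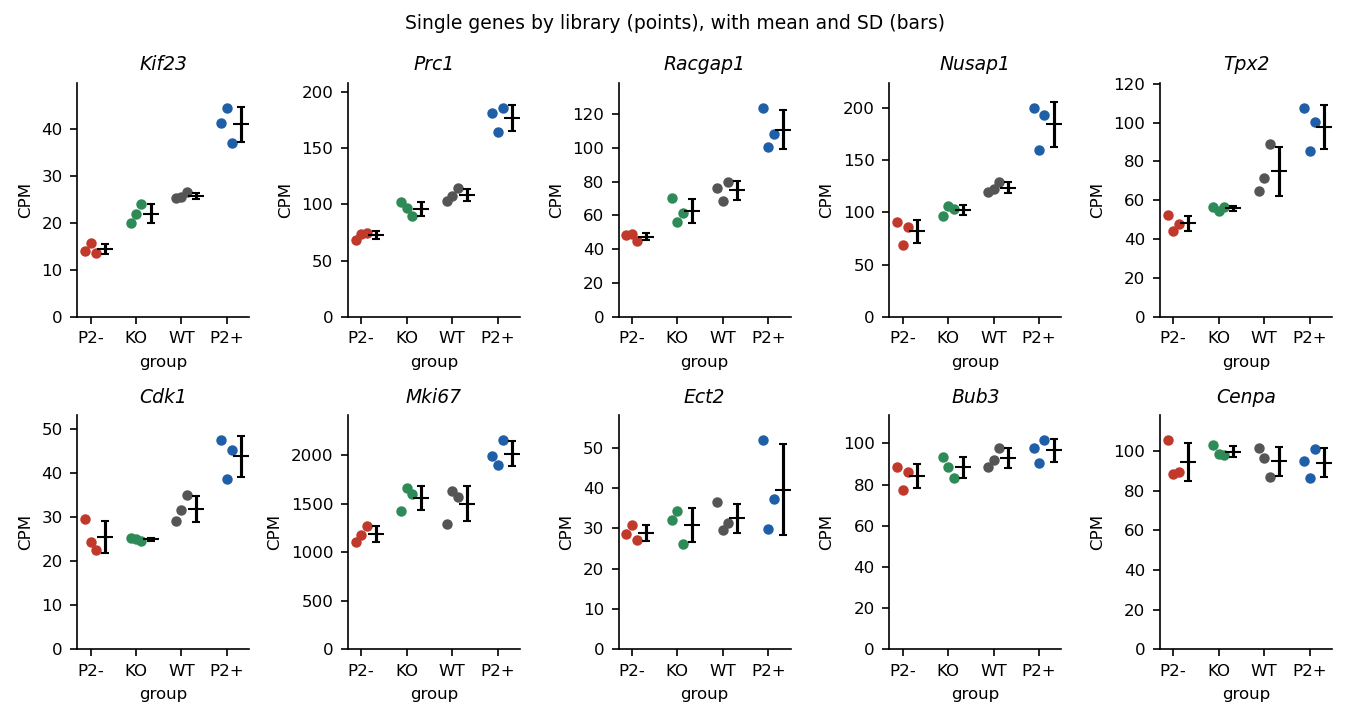
CPM per library (points, 3 per group) of 10 genes with the group mean and SD (bars), axes from 0. Kif23, Prc1 and Nusap1 step up from P2- over KO and WT to P2+ without overlap. Cdk1 has its lowest group mean in KO, whose libraries lie within the P2- range, and Bub3 and Cenpa stay within a narrow range (77.3 to 101.5 CPM for Bub3).

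The order of the group means was P2+, WT, KO, P2- from high to low in 43 of the 50 genes. This order was not counted over all genes, and its step from WT to KO rests on small changes that mostly did not pass the test. Mki67, Kif20b and Ncapg had KO above WT, Cdk1 had KO below P2-, and Cdc25b, Cenpa and Pttg1 each had an order of their own. The highest library was P2+ replicate 1 in 34 genes and the lowest was P2- replicate 2 in 29. Replicates varied moderately, with a median coefficient of variation over the members of 5.93% in WT, 7.51% in KO, 9.23% in P2- and 11.01% in P2+ PreMegEs. Over all genes with a group mean of 10 CPM or more it was 7.44%, 6.39%, 8.38% and 8.78%.

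Other genes of the cycle were compared from lists written down with earlier results of these data known. In a list of 106 other mitosis genes, 62 rose and 2 fell from P2- to P2+ PreMegEs, with a median log2 fold change of 0.50, against 20.1% higher, 17.0% lower and a median of -0.02 over all genes tested. Fam64a (1.78 ± 0.19, adjusted p = 0.000162), Cep55, which drives abscission at the midbody (1.45 ± 0.15, adjusted p = 0.000119), and Ckap2l, a spindle protein (1.27 ± 0.12, adjusted p = 7.78e-05), had the largest rises. The 2 lower genes were Cdc25a, the phosphatase that acts from late G1 phase on (-0.35 ± 0.08, adjusted p = 0.0104), and Zwint, a kinetochore protein (-0.25 ± 0.09, adjusted p = 0.0455). Zwint lost its call in each of the 6 fits without 1 library but that without P2+ replicate 2. In KO against WT PreMegEs 7 of the 106 genes were lower, a share below the 8.76% of all genes tested, and 99 did not pass the test. The largest falls were those of Ckap2l (-0.67 ± 0.07, adjusted p = 6.88e-06), Fam64a (-0.47 ± 0.13, adjusted p = 0.0193) and Pbk, a mitotic kinase (-0.46 ± 0.11, adjusted p = 0.0068). The call of Fam64a in KO was lost without WT replicate 3 and without KO replicate 2.

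Genes of S phase differed less between the fractions in the median, with log2 fold changes of single genes from -0.43 to 0.90. No test was made of the difference between the lists. From P2- to P2+ PreMegEs 13 of 40 such genes rose and the other 27 did not pass the test, with a median log2 fold change of 0.12, against 20.1% higher and a median of -0.02 over all genes tested. In KO against WT 1 was lower and 39 did not pass, against 8.76% lower over all genes. Their summed level was 3847 to 4142 CPM in WT, 3847 to 4250 CPM in P2-, 4215 to 4694 CPM in P2+ and 3886 to 3997 CPM in KO PreMegEs. The ratio of the sum of the 50 mitosis genes to this sum was between 1.26 and 1.33 in WT, 0.93 and 1.06 in P2-, 1.48 and 1.63 in P2+, and 1.20 and 1.27 in KO PreMegEs. By this ratio P2- and P2+ libraries were separate from WT and from each other, and those of KO and WT overlapped at their edges.

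Per exonic length, the level of the 50 genes in WT PreMegEs spanned from 1.35 RPKM for Ndc80 to 149 RPKM for Mki67, with Ccna2 (50.4 RPKM) and Top2a (34.7 RPKM) next. Mki67, Ccna2 and Top2a were also the first 3 in P2+ and KO PreMegEs, and Ndc80 was the lowest in every group. Whether counting used the strand is not given in the sources used here, and 14 of the genes share exonic bases with a gene on the other strand. The overlap covered more than 10% of the exonic length in 7 of them, at most in Kif20a (29.3%, with Cdc23) and Ube2c (22.8%, with Tnnc2, which had at most 3 counts in a library). Ccna2 and Prc1 overlap with Exosc9 (12.5%) and Rccd1 (11.1%). Kif4, Kif22 and Ccnb2 have pseudogenes in the table, and the counting of reads with several alignments is not given, so the values of these genes are less certain.

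Markers of the lineages moved with the groups as well. The summed level of 20 megakaryocyte markers was 556 to 735 CPM in P2-, 1238 to 1399 CPM in KO, 1856 to 2057 CPM in WT and 2920 to 3972 CPM in P2+ PreMegEs, in the same order as the mitosis genes. That of 20 erythroid markers ran the other way, with 6010 to 6798 CPM in P2-, 5755 to 6449 CPM in KO, 3446 to 3940 CPM in WT and 1345 to 1598 CPM in P2+ PreMegEs. The 15 stem cell markers summed to 463 to 554 CPM in P2-, 578 to 605 CPM in KO, 832 to 853 CPM in WT and 1155 to 1281 CPM in P2+ PreMegEs, again in the order of the mitosis genes and without overlap. The 20 neutrophil and monocyte markers summed to 76.6 to 181 CPM in P2-, 105 to 166 CPM in KO, 200.3 to 364 CPM in WT and 363 to 531 CPM in P2+ PreMegEs. The 20 lymphoid markers summed to 104 to 141 CPM in P2-, 125 to 127 CPM in KO, 252 to 284 CPM in WT and 207 to 313 CPM in P2+ PreMegEs. The 15 mast cell and basophil markers summed to 35.1 to 39.4 CPM in P2-, 56.4 to 80.8 CPM in KO, 36.2 to 59.3 CPM in WT and 108 to 166 CPM in P2+ PreMegEs, and 5 to 9 of them were at 0 in every library of a group. The part of these cell types in the differences of the mitosis genes was not tested.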

How the data were processed

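Per the labels and the paper's methods, strand-specific poly(A) libraries were sequenced in paired reads, and the authors aligned them to GRCm38 with Bowtie2 and counted them per Ensembl gene with featureCounts. The deposited values are these whole counts, which were not normalized. The members and lists were chosen with earlier results of these data known.

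From the counts, each pair of groups was tested with edgeR 4.0.16 over genes that reached 1 CPM in 3 or more of its 6 libraries, in R 4.3.3 (TMM scaling, quasi-likelihood F-test on the group, Benjamini-Hochberg adjustment over all genes tested), and a gene was called at an adjusted p under 0.05. The SE of a log2 fold change is its size divided by the square root of F. CPM per library is TMM-scaled over all 12 libraries and not scaled to gene length, so the CPM of single genes is compared across libraries only. Long genes weigh more in the sums of CPM, in the share of Mki67 and in the ratio of sums. RPKM uses the exonic length in GENCODE vM21 (GRCm38). The fit was checked on simulated counts. Each library is a pool of mice, so p-values measure the spread between pools.

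All 50 genes are accounted for by role. Values of every library are given for Cdk1, Ccnb1, Aurkb, Plk1, Cdc20, Top2a, Mki67 and Bub3, for the 10 called genes with the largest change between P2+ and P2- PreMegEs, and for the 5 called genes with the largest change in each other comparison (all 4 called genes in KO against WT). The same values of Pttg1, Cenpa and Ect2 were added after they had been seen. Of the other mitosis genes, up to 3 called genes in either direction, by size of change, are named for P2+ against P2- and for KO against WT PreMegEs. Same-numbered P2+ and P2- libraries deviated together (correlations across genes of 0.451, 0.666 and 0.458), which pairs them. In the other comparisons at least 1 correlation was under 0.1, and numbers were not taken as pairs. Depth limits a gene at 0 to 3 counts, or 0.207 to 0.288 CPM, for counting error only.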

Additional observations from a re-analysis of the deposited data

How the results depend on the processing

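No called value changed its direction under an alternative. With a minimum of 2-fold, 14 members were higher in P2+ than in P2- PreMegEs, and 0 were called in each of P2+ against WT, P2- against WT and KO against WT. Leaving out 1 library at a time gave 40 to 46 higher members for P2+ against P2-, 16 to 36 for P2+ against WT, 11 to 21 lower for P2- against WT and 2 to 4 lower for KO against WT, with fewer samples in each fit. A single fit over all 12 libraries gave 1 lower member in KO PreMegEs (Tpx2). The cause was not tested. The KO level was 92.1% of WT by the mean of log2 CPM in place of the sum, in which Mki67 weighs most, against 96.01%. The replicate block changed the calls of Bub3 and Ect2 between the paired fractions and no other there. For the other comparisons, in which libraries share only a number, it gave 32 higher for P2+ against WT, 16 lower for P2- against WT and 5 lower for KO against WT, and the check of shared deviations is given with the processing. Between edgeR's exact test, DESeq2, other scalings and other filters the counts stayed within 1.5 times of those reported (43 to 47 for P2+ against P2-, 31 to 37 for P2+ against WT, 21 to 28 for P2- against WT and 3 to 5 for KO against WT). Over all alternatives, the named genes kept their side of the threshold in 781 of the values for P2+ against P2-, lost it in 37 and gained it in 7, in 595, 81 and 24 for P2+ against WT, in 623, 58 and 19 for P2- against WT, and in 716, 20 and 6 for KO against WT.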
